A study of Mus musculus with 4 samples.

Results

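The DNA replication genes described here are 47 genes chosen by symbol, which encode the proteins that mark origins, load and start the replicative helicase, copy DNA, seal it, supply nucleotides and rebuild chromatin behind the fork. All 47 were found among the 24346 gene symbols listed for each library, and all 47 passed the filter on low values that left 11018 genes for analysis. The cells were HFSCs, cells sorted as CD49f+ CD34+ from dorsal skin of C3H/HeN mice, 4-week-old adults, and passaged weekly in the serum-free medium M-CnT, without a transgene or an added agent. Polyadenylated RNA was sequenced from HFSCs after 10 passages (10p-HFSCs, 2 libraries) and after 48 passages (48p-HFSCs, 2 libraries). The comparison asks how the cells differed after long-term culture. Neither the labels nor the methods say whether the libraries of a group came from separate animals, sorts or cultures. The p-values therefore rest only on the spread between these libraries, which may be technical. That spread is pooled in part across genes, so a p-value does not measure the replicates of a single gene alone.

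Values are FPKM, a level scaled by sequencing depth and by transcript length, so that genes can be compared with each other. Differences are those of 48p-HFSCs from 10p-HFSCs on the log2(FPKM + 1) scale, on which low values move less than their true ratio. A gene was called at an adjusted p-value under 0.05 from limma together with a difference of at least 1, which is 2-fold. FPKM summed to between 581516 and 719012 in 3 libraries and to 1414953 in replicate 2 of 48p-HFSCs, whose relative depth was also the lowest, at 46.7% of that of replicate 1 of 10p-HFSCs. Basal keratinocyte markers (6 of 6, among them Krt5 and Krt14) were at an FPKM of at least 1 in every library. Of 6 hair follicle stem cell markers, Krt15 and Sox9 were as well. Cd34 lay at 0.234 or less, and Lhx2, Lgr5 and Nfatc1 at 0.0303 or less. The label HFSC comes from the sort for CD49f and CD34, not from these RNA levels. Sox9 was called lower, with 45.6 and 44.2 FPKM in 10p-HFSCs against 20.2 and 8.31 FPKM in 48p-HFSCs, a difference of -1.71 (adjusted p = 0.039). By quantitative PCR, the paper instead reports that Sox9 and Lhx2 rose in 48p-HFSCs and that CD34 and Krt15 were kept. It also reports most long-term cultured cells as positive for CD34 protein. Why those assays and these RNA levels differ was not tested. Krt15 measured 424.8 FPKM in replicate 1 and 18.8 FPKM in replicate 2 of 48p-HFSCs.

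In a dividing cell, the origin recognition complex binds DNA in G1, and CDC6 and CDT1 load the ring-shaped MCM2-7 complex there, until geminin blocks CDT1. CDC45 and GINS then turn MCM2-7 into the active helicase, polymerases alpha, delta and epsilon copy the strands, and PCNA, loaded by RFC, holds the polymerases on DNA. Most of these genes are transcribed in late G1 and S phase under E2F transcription factors. Stem cells of the follicle bulge are known to divide rarely in skin, while cells in culture cycle.

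Of the 47 genes, 14 (29.8%) were called lower and 0 were called higher, where 9.15% of all genes analysed were called lower and 10.8% higher. At an unadjusted p under 0.05, 18 replication genes were lower (38.3%, with 18.9% of all genes) and 3 were higher (6.38%, with 18.5% of all genes). Both 48p-HFSC libraries lay below both 10p-HFSC libraries for 23 genes (48.9%, with 34.3% of all genes) and above them for 5 (10.6%, with 31.7% of all genes). The 14 genes called lower were Orc2, Orc6, Cdc6, Mcm2, Mcm3, Mcm4, Mcm5, Mcm7, Cdc45, Gins3, Pola1, Pcna, Tyms and Chaf1b. The mean was lower in 48p-HFSCs for 35 of the 47 (74.5%, with 51.5% of all genes). The median difference of the 47 genes was -0.40, and that of all genes was -0.03.

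The 48p-HFSC libraries differed in how far the genes lay below 10p-HFSCs. Relative to the 10p-HFSC mean, the median over the 47 genes was -0.61 in replicate 1 of 48p-HFSCs, with 40 genes below that mean, and -0.15 in replicate 2, with 29 genes below it. Ranked within its own library among the genes analysed, the median replication gene stood at percentiles 72.6 and 69.7 in the 10p-HFSC libraries against 59.3 and 62.4 in the 48p-HFSC libraries, a measure that no scaling of a library can change. Without either of the 10p-HFSC libraries, 0 of the 47 genes were called (adjusted p from 0.096 to 0.44 for the 14 genes), although all 14 kept a lower mean, and over all genes 140 and 146 were then called lower. Without replicate 2 of 48p-HFSCs 9 replication genes were called lower, beside 767 of all genes. Without replicate 1 of 48p-HFSCs 13 were called lower and 4 higher, beside 1875 lower and 1936 higher over all genes. That the 14 genes kept a lower mean without a library was fixed in advance, since their groups did not overlap. Of 12 other settings that used every library, Mcm3 and Tyms were called in 7 and Orc2 in 8. Cdc6, Cdc45, Gins3, Pola1 and Pcna were called in 10, and the remaining 6 of the 14 genes in all 12. The settings with an adjusted p under 0.1 and with no fold limit only loosen a threshold of the same fit. The calls kept in those settings were fixed in advance as well. With 2 libraries against 2, the smallest two-sided p of an exact permutation test is 0.33. In bulk RNA, fewer cells in S phase and less RNA per cell cannot be told apart. The paper reports that proliferation, by cell counts and BrdU uptake, was kept or rose in long-term culture. The relation of those assays to these RNA levels was not tested.

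**Figure D1:**
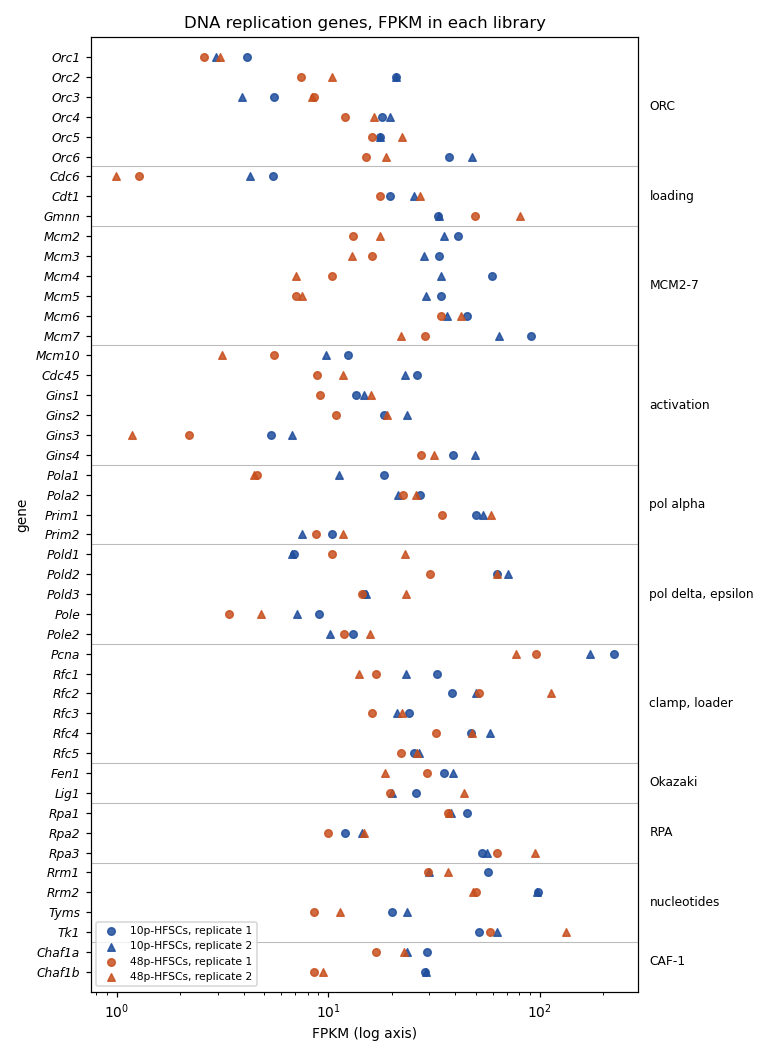
FPKM on a log axis (x) of each of the 47 replication genes (y, grouped by role) in 10p-HFSCs (blue) and 48p-HFSCs (orange), with circles for replicate 1 and triangles for replicate 2. Both orange points lie left of both blue points for 23 genes and right of them for 5 genes.

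**Figure D2:**
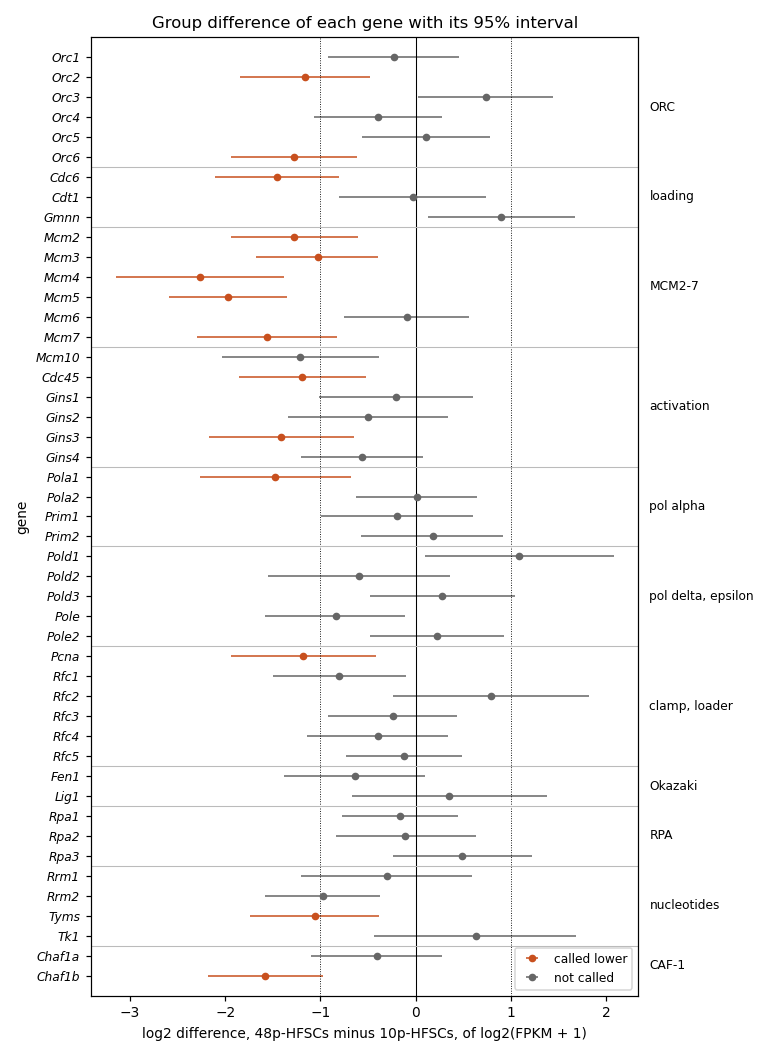
Difference of 48p-HFSCs from 10p-HFSCs on the log2(FPKM + 1) scale (x) for each of the 47 genes (y, grouped by role), with 95% intervals from limma as bars and dotted lines at a 2-fold change. The 14 genes called lower are in orange, and the values run from -2.27 for Mcm4 to 1.09 for Pold1.

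Of the MCM2-7 genes, which encode the 6 subunits of the helicase ring, 5 were called lower and Mcm6 was not. Mcm5 measured 34.1 and 29.1 FPKM in 10p-HFSCs against 7.06 and 7.52 FPKM in 48p-HFSCs. The groups lay far apart, with replicates close to each other, and the difference was -1.97 (SE 0.25, adjusted p = 0.005). Mcm4 measured 59.4 and 34.2 FPKM in 10p-HFSCs against 10.4 and 7.05 FPKM in 48p-HFSCs. Its 10p-HFSC libraries differed from each other more than those of the other subunits, yet both were above both 48p-HFSC libraries, and the difference of -2.27 (SE 0.36, adjusted p = 0.011) was the largest decrease of the 47 genes. Mcm7 measured 91.5 and 64.5 FPKM in 10p-HFSCs against 28.8 and 22.2 FPKM in 48p-HFSCs, a difference of -1.56 (SE 0.30, adjusted p = 0.019). Mcm2 measured 41.3 and 35.4 FPKM in 10p-HFSCs against 13.1 and 17.6 FPKM in 48p-HFSCs, a difference of -1.28 (SE 0.27, adjusted p = 0.026). The groups did not overlap for either gene. Mcm3 measured 33.3 and 28.3 FPKM in 10p-HFSCs against 16.2 and 13.0 FPKM in 48p-HFSCs, and its difference of -1.03 (SE 0.26, adjusted p = 0.042) lay just past the 2-fold limit.

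Mcm6 measured 45.5 and 36.5 FPKM in 10p-HFSCs against 34.3 and 42.4 FPKM in 48p-HFSCs, so that the groups overlapped, with a difference of -0.09 and a 95% interval from -0.75 to 0.56. That interval allows a moderate change in either direction, and the differences of the other 5 subunits lie outside it. Whether Mcm6 differed from them was not tested. Within a library, the ratio of Mcm6 to the geometric mean of the other 5 subunits needs no scaling between libraries. It was 0.947 and 1 in the 10p-HFSC libraries against 2.54 and 3.48 in the 48p-HFSC libraries. By FPKM, Mcm6 was the number 3 and the number 2 of the 6 genes in the 10p-HFSC libraries and the highest in both 48p-HFSC libraries. The highest of the 6 genes exceeded the lowest 2.74-fold and 2.28-fold in 10p-HFSCs, and 4.86-fold and 6.02-fold in 48p-HFSCs. These ratios, and those of gene pairs given below, were chosen after the values had been seen. Where a ratio sets a called gene beside one not called, its shift follows in part from that choice.

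The bases before the start of Mcm5, which was called lower, and of Mcm6, which was not called, are shown because both carry the E2F core, the sequence that E2F factors are known to bind. They are RefSeq sequences of GRCm38.p6, written in the direction of transcription from 250 bases before the start to the base before it, with capitals for the E2F core (searched as TTCCCGC, or with TTGGCGC, or else with TTCGCGC, or finally with TTGCCGC, on either strand, overlapping matches included).
Mcm5, chr8:75109259-75109508, plus strand: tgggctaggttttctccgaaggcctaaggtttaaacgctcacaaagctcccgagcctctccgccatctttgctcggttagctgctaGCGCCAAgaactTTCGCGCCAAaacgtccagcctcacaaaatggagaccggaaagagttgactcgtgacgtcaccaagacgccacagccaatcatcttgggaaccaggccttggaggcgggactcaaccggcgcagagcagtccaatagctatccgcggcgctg
Mcm6, chr1:128359706-128359955, minus strand: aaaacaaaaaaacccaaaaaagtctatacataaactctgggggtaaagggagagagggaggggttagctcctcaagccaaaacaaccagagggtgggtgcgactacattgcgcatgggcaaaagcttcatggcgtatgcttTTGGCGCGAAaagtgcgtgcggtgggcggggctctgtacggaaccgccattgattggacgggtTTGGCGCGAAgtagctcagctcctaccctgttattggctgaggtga
The Mcm5 stretch holds 3 matches, the nearest beginning at position -149 from the start, and the Mcm6 stretch holds 4, which overlap in pairs and of which the nearest begins at position -43. The 250 bases before the starts of Mcm2 and Mcm3, which were also called lower, hold 0 matches each. A match describes letters and not a bound site.

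**Figure D3:**
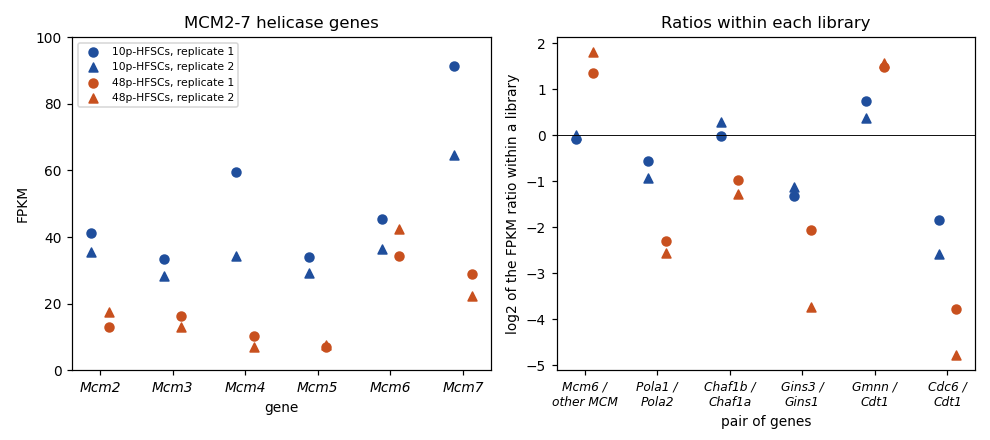
Left, FPKM (y, linear from 0) of the MCM2-7 genes (x) in each library, where Mcm6 is the gene whose orange (48p-HFSCs) and blue (10p-HFSCs) points overlap. Right, the log2 of the FPKM ratio of gene pairs within a library (y), with the ratio of Mcm6 to the other 5 subunits at -0.08 and 0.00 in the blue points and at 1.35 and 1.80 in the orange points, and circles and triangles for replicates 1 and 2.

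Of the 3 genes that act in loading the ring, Cdc6, which encodes the ATPase that joins ORC in loading, was called lower. It measured 5.48 and 4.29 FPKM in 10p-HFSCs against 1.28 and 0.991 FPKM in 48p-HFSCs, a difference of -1.46 (SE 0.27, adjusted p = 0.017). The lower level is near the limit of 1 FPKM used for the filter. Cdt1, which encodes the other loader, measured 19.6 and 25.6 FPKM in 10p-HFSCs against 17.6 and 27.2 FPKM in 48p-HFSCs. Its groups overlapped, with a difference of -0.03 and a 95% interval from -0.81 to 0.74. Gmnn, which encodes geminin, the inhibitor of CDT1, measured 33.1 and 33.4 FPKM in 10p-HFSCs against 49.3 and 80.8 FPKM in 48p-HFSCs. The groups did not overlap, the 48p-HFSC libraries lay far apart, and the difference of 0.90 (SE 0.31) had an adjusted p of 0.095. Within a library, Gmnn exceeded Cdt1 1.69-fold and 1.31-fold in 10p-HFSCs, and 2.81-fold and 2.97-fold in 48p-HFSCs.

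The origin recognition complex, which holds 6 subunits, had 2 genes called lower. Orc6, which encodes the smallest subunit, measured 37.3 and 47.7 FPKM in 10p-HFSCs against 15.1 and 18.7 FPKM in 48p-HFSCs, a difference of -1.28 (SE 0.27, adjusted p = 0.025). Orc2 measured 20.9 and 20.9 FPKM in 10p-HFSCs against 7.45 and 10.4 FPKM in 48p-HFSCs, a difference of -1.16 (SE 0.28, adjusted p = 0.035). Neither gene overlapped between groups. Orc3 went the other way, with 5.52 and 3.92 FPKM in 10p-HFSCs against 8.53 and 8.35 FPKM in 48p-HFSCs, without overlap, and its difference of 0.74 was not called (adjusted p = 0.12). Orc1, Orc4 and Orc5 had differences from -0.40 to 0.11.

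Of the genes that turn the loaded ring into the active helicase, Cdc45 and Gins3 were called lower. Cdc45 measured 26.2 and 23.1 FPKM in 10p-HFSCs against 8.86 and 11.8 FPKM in 48p-HFSCs, a difference of -1.19 (SE 0.27, adjusted p = 0.031). Gins3, a subunit of the 4-part GINS complex, measured 5.36 and 6.74 FPKM in 10p-HFSCs against 2.19 and 1.18 FPKM in 48p-HFSCs, a difference of -1.41 (SE 0.31, adjusted p = 0.028). Both fell without overlap. The other GINS genes were not called, with Gins1 with 13.5 and 14.7 FPKM in 10p-HFSCs against 9.13 and 15.9 FPKM in 48p-HFSCs, a difference of -0.21, and with -0.50 for Gins2 and -0.56 for Gins4. Mcm10, a factor that helps start the helicase, measured 12.4 and 9.75 FPKM in 10p-HFSCs against 5.55 and 3.15 FPKM in 48p-HFSCs. Its libraries did not overlap either, and its difference of -1.21 missed the threshold (adjusted p = 0.055).

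The primase complex of DNA polymerase alpha had 1 of its 4 genes called lower. Pola1, which encodes the catalytic subunit, measured 18.4 and 11.2 FPKM in 10p-HFSCs against 4.59 and 4.44 FPKM in 48p-HFSCs, a difference of -1.48 (SE 0.32, adjusted p = 0.028). Pola2, its accessory subunit, measured 27.1 and 21.5 FPKM in 10p-HFSCs against 22.7 and 26.1 FPKM in 48p-HFSCs, a difference of 0.01 with a 95% interval from -0.63 to 0.65. Of the primase genes, Prim1 had a difference of -0.20, and Prim2 measured 10.4 and 7.51 FPKM in 10p-HFSCs against 8.78 and 11.7 FPKM in 48p-HFSCs, which overlap, with 0.18. Within a library, the ratio of Pola1 to Pola2 was 0.678 and 0.520 in the 10p-HFSC libraries against 0.202 and 0.170 in the 48p-HFSC libraries. The 250 bases before the start of each are given in the way described for Mcm5, since both genes serve the same enzyme.
Pola1, chrX:93632156-93632405, minus strand: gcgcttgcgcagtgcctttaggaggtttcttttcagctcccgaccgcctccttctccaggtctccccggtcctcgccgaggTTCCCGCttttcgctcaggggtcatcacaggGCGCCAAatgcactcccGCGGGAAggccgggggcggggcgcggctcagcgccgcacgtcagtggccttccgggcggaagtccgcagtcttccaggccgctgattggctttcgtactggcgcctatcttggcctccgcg
Pola2, chr19:5964207-5964456, minus strand: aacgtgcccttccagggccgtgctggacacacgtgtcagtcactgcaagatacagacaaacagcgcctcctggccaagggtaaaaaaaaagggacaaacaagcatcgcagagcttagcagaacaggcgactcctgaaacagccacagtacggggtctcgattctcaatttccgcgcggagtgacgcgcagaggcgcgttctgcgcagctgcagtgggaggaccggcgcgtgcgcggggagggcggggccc
The Pola1 stretch holds 3 matches to the E2F core, and these letters are not in the Pola2 stretch.

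None of the 5 genes of polymerases delta and epsilon, the main copying enzymes, was called. Pold1, the catalytic subunit of polymerase delta, measured 6.88 and 6.72 FPKM in 10p-HFSCs against 10.4 and 23.0 FPKM in 48p-HFSCs. Its difference of 1.09 (SE 0.40) was the highest of the 47 genes and had an adjusted p of 0.11, and its 48p-HFSC libraries lay more than 2-fold apart. Pole, the catalytic subunit of polymerase epsilon, measured 9.04 and 7.12 FPKM in 10p-HFSCs against 3.38 and 4.79 FPKM in 48p-HFSCs, without overlap, a difference of -0.84 (adjusted p = 0.1). Pold2, Pold3 and Pole2 had differences from -0.59 to 0.28.

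Pcna, which encodes the sliding clamp, had the highest FPKM of the 47 genes in 10p-HFSCs, at 223.6 and 172.4, and was at 95.7 and 77.0 in 48p-HFSCs. The groups lay apart, with a difference of -1.18 (SE 0.31, adjusted p = 0.046). Processed copies named Pcna-ps1 and Pcna-ps2 exist in the mouse genome, and the sources used here do not say how reads that map to several places were handled. The genes of the clamp loader were not called. The highest difference among them was that of Rfc2, with 38.7 and 50.2 FPKM in 10p-HFSCs against 51.9 and 113.5 FPKM in 48p-HFSCs, with 0.79 (adjusted p = 0.22). Rfc1, the large subunit, measured 32.6 and 23.3 FPKM in 10p-HFSCs against 16.9 and 14.0 FPKM in 48p-HFSCs, without overlap, a difference of -0.80 (adjusted p = 0.1). Rfc3, Rfc4 and Rfc5 had differences from -0.40 to -0.12.

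For Okazaki fragment maturation, the flap nuclease gene Fen1 measured 35.4 and 38.8 FPKM in 10p-HFSCs against 29.4 and 18.6 FPKM in 48p-HFSCs, a difference of -0.64 (adjusted p = 0.18). The ligase gene Lig1 measured 25.9 and 20.0 FPKM in 10p-HFSCs against 19.6 and 44.0 FPKM in 48p-HFSCs, which overlap, with 0.35 (adjusted p = 0.57). RPA coats single-stranded DNA. Its large subunit gene Rpa1 measured 45.3 and 37.9 FPKM in 10p-HFSCs against 36.7 and 37.2 FPKM in 48p-HFSCs, a difference of -0.16 with a 95% interval from -0.77 to 0.45. Rpa3, which encodes the small subunit, measured 53.3 and 56.2 FPKM in 10p-HFSCs against 63.2 and 94.6 FPKM in 48p-HFSCs, without overlap, a difference of 0.49 (adjusted p = 0.28), and Rpa2 differed by -0.11.

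Among the genes of nucleotide supply, Tyms, which encodes thymidylate synthase, was called lower. It measured 20.1 and 23.6 FPKM in 10p-HFSCs against 8.56 and 11.4 FPKM in 48p-HFSCs, a difference of -1.06 (SE 0.28, adjusted p = 0.045). A copy named Tyms-ps has a symbol of its own and is listed at 0 in every library. Rrm2, the small subunit of ribonucleotide reductase, measured 97.9 and 96.8 FPKM in 10p-HFSCs against 50 and 48.2 FPKM in 48p-HFSCs. The difference of -0.97 for Rrm2 had an adjusted p of 0.043 and missed only the fold limit. Rrm1, the large subunit, measured 56.8 and 29.9 FPKM in 10p-HFSCs against 29.8 and 37.0 FPKM in 48p-HFSCs, which overlap, a difference of -0.30. Within a library, the ratio of Rrm2 to Rrm1 was 1.72 and 3.24 in the 10p-HFSC libraries against 1.68 and 1.3 in the 48p-HFSC libraries, barely apart. Tk1, thymidine kinase of the salvage route, measured 51.6 and 62.6 FPKM in 10p-HFSCs against 58.1 and 133.5 FPKM in 48p-HFSCs, a difference of 0.63 (adjusted p = 0.34).

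Chromatin assembly factor 1 places histones on new DNA. Chaf1b, its middle subunit, measured 28.8 and 28.9 FPKM in 10p-HFSCs against 8.58 and 9.48 FPKM in 48p-HFSCs. Replicates were nearly equal in both groups, and the difference was -1.58 (SE 0.24, adjusted p = 0.0098). Chaf1a, the large subunit, measured 29.3 and 23.7 FPKM in 10p-HFSCs against 16.8 and 22.9 FPKM in 48p-HFSCs, a difference of -0.41 with a 95% interval from -1.10 to 0.28. Within a library, the ratio of Chaf1b to Chaf1a was 0.985 and 1.22 in the 10p-HFSC libraries against 0.510 and 0.415 in the 48p-HFSC libraries. The 250 bases before each start are shown as another pair of subunits of the same complex of which 1 gene was called.
Chaf1a, chr17:56040166-56040415, plus strand: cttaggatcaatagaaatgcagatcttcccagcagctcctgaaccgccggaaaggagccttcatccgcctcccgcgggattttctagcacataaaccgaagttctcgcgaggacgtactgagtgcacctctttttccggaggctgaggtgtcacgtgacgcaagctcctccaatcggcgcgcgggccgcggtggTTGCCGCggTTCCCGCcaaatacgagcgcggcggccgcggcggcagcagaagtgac
Chaf1b, chr16:93883651-93883900, plus strand: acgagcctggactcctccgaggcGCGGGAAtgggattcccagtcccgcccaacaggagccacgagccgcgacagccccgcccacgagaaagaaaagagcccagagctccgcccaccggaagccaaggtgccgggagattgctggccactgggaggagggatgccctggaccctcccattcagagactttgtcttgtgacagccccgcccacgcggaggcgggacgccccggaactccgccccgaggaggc
The match nearest to the start begins at position -47 in Chaf1a and at position -227 in Chaf1b.

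Promoter windows, from 250 bases before to 50 bases after a start, were found for 39 of the 47 genes (47 windows), and not for Gmnn, Mcm4, Gins1, Gins2, Gins4, Prim2, Pole and Rfc2. The E2F core was in the windows of 26 of 39 genes (66.7%), where 20.3% of the genes analysed and 10.9% of all genes with a window held it. It was in 7 of 13 genes called lower and in 19 of 26 genes not called. The CCAAT box (CCAAT on either strand, the site of NF-Y) was in 10 of 13 genes called lower and in 14 of 26 genes not called, with 43.9% of the genes analysed. The CHR (TTTGAA or TTCGAA on either strand), an element of G2/M genes, was in 7 of 39 genes, with 16.2% of the genes analysed. These were 4 of 13 genes called lower and 3 of 26 genes not called. The GC box (GGGCGG on either strand) was in 30 of 39, with 70.1% of the genes analysed. These were 10 of 13 genes called lower and 20 of 26 genes not called. The CCAAT box, the CHR and the GC box were searched apart from the E2F core and may overlap it. These are counts of letters, with no test.

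Of the 10 replication genes on chromosomes 8 and 16, 6 were called lower (Orc6, Mcm5 and Gins3 on chromosome 8, and Mcm4, Cdc45 and Chaf1b on chromosome 16), and of the 37 on other chromosomes 8 were (21.6%). The same chromosomes were lower as a whole. The median difference was -0.61 over the 565 genes analysed on chromosome 8 and -0.40 over the 340 on chromosome 16, and 19.8% and 19.7% of these genes were called lower, where 8.2% of the genes elsewhere were. Cdt1, Gins2 and Gins4 lie on chromosome 8 as well and Rfc4 lies on chromosome 16, and none of these was called. The chromosomes were set apart after the values had been seen, and the part of this in each gene's difference was not tested.

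**Figure D4:**
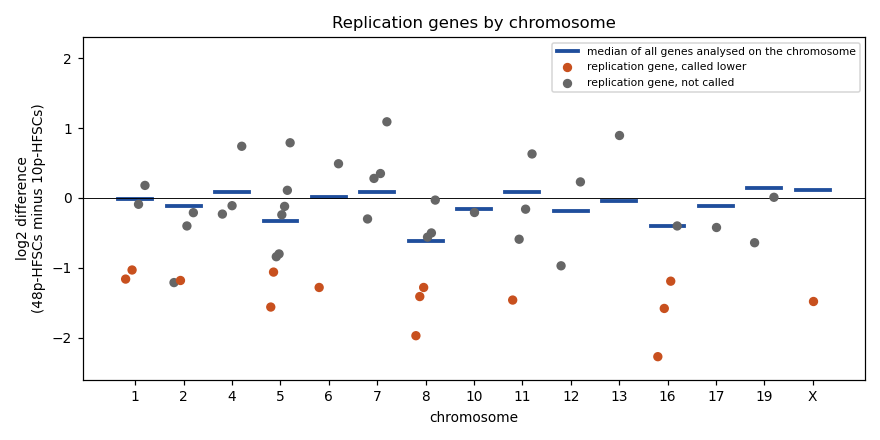
Difference of 48p-HFSCs from 10p-HFSCs on the log2(FPKM + 1) scale (y) for each replication gene by its chromosome (x), in orange where called lower and in gray where not, with blue bars for the median of all genes analysed on that chromosome. The blue bars are lowest on chromosomes 8 (-0.61) and 16 (-0.40), where 6 of 10 replication genes were called lower.

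A list of 46 other genes of replication included the kinase that fires origins, fork protection and histone chaperones. Of these, 7 were called lower (15.2%, with 9.15% of all genes) and 1 higher (with 10.8% of all genes). Their median difference was -0.42. The largest decreases were those of Clspn, a checkpoint mediator at the fork, with 11.7 and 7.73 FPKM in 10p-HFSCs against 3.16 and 2.41 FPKM in 48p-HFSCs (-1.48, adjusted p = 0.026), and of Topbp1, which acts in origin firing and checkpoint signaling, with 36.0 and 26.6 FPKM in 10p-HFSCs against 12.4 and 9.43 FPKM in 48p-HFSCs (-1.44, adjusted p = 0.022). The histone chaperone gene Asf1b, which works beside chromatin assembly factor 1, fell from 61.3 and 63.8 to 20.0 and 27.7 (-1.37, adjusted p = 0.021), and Dna2, a nuclease that trims Okazaki flaps, from 4.49 and 4.11 to 1.35 and 1.12 (-1.25, adjusted p = 0.022). The other genes called lower were Tipin, Nasp and Dbf4, the activator of the CDC7 kinase, with differences of -1.22, -1.22 and -1.13. The gene called higher was Rrm2b, the p53-inducible small subunit of ribonucleotide reductase, with 1.45 and 1.24 FPKM in 10p-HFSCs against 4.67 and 3.86 FPKM in 48p-HFSCs (1.16, adjusted p = 0.029), beside Rrm2, whose difference was -0.97.

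Of 27 genes of G1/S cyclins, their kinases and inhibitors, and E2F factors, 2 were called lower (7.41%) and 1 higher. Of all genes, 9.15% were called lower and 10.8% higher, so this list was below the general share in both directions. Tfdp1, which encodes the partner that E2F factors bind DNA with, measured 135.7 and 123.7 FPKM in 10p-HFSCs against 28.7 and 13.2 FPKM in 48p-HFSCs, a difference of -2.67 (SE 0.39, adjusted p = 0.0081), and it lies on chromosome 8. E2f8, a repressor of the family, measured 18.4 and 15 FPKM in 10p-HFSCs against 7.12 and 8.16 FPKM in 48p-HFSCs, a difference of -1.03 (adjusted p = 0.045). Cdkn2b, which encodes the CDK4/6 inhibitor p15, measured 26 and 33.4 FPKM in 10p-HFSCs against 110.1 and 119.4 FPKM in 48p-HFSCs, a difference of 1.92 (adjusted p = 0.0065). Of 24 G2/M and proliferation genes, Cenpf and Lin9 were called lower (8.33%, with 9.15% of all genes) and 0 higher (with 10.8% of all genes). The median difference of the 24 was -0.05. Cenpf, which encodes a kinetochore protein, measured 17.5 and 9.96 FPKM in 10p-HFSCs against 1.28 and 1.67 FPKM in 48p-HFSCs, a difference of -2.53 (adjusted p = 0.0063). Lin9, a subunit of the complex that binds G2/M promoters, measured 11.6 and 8.27 FPKM in 10p-HFSCs against 3.85 and 1.24 FPKM in 48p-HFSCs, a difference of -1.71 (adjusted p = 0.043). Mki67 measured 71.6 and 57.7 FPKM in 10p-HFSCs against 35.8 and 39.6 FPKM in 48p-HFSCs, without overlap, a difference of -0.76 (adjusted p = 0.092). Other genes of this list were higher and not called. The largest increase was that of Birc5 (0.99, adjusted p = 0.26). It measured 93.7 and 113.3 FPKM in 10p-HFSCs against 113.3 and 374.2 FPKM in 48p-HFSCs, which overlap. Cdk1 was higher without overlap (0.57, adjusted p = 0.33). It measured 50.4 and 47.8 FPKM in 10p-HFSCs against 51.1 and 104.7 FPKM in 48p-HFSCs, so replicate 1 of 48p-HFSCs was barely higher. Of the 24 genes, 7 were lower without overlap and 1 higher, where 34.3% and 31.7% of all genes were. The mean was lower for 14 of the 24.

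Markers of the labelled and of other cells were counted beside these results. The 6 basal keratinocyte markers summed to 3653.6 and 3008.2 FPKM in the 10p-HFSC libraries against 12611.7 and 7940.2 FPKM in the 48p-HFSC libraries, of which Krt5 made up the largest share in each. The integrin genes Itga6, with 31.4 and 20.8 FPKM in 10p-HFSCs against 101.0 and 79 FPKM in 48p-HFSCs (1.77, adjusted p = 0.014), and Itgb4, with 59.3 and 46.4 FPKM in 10p-HFSCs against 104.8 and 108.8 FPKM in 48p-HFSCs (1.01, adjusted p = 0.049), were called higher, and the other 4 were not called. Of 6 fibroblast markers, Col1a2 reached an FPKM of 1, in 10p-HFSCs, and the list summed to between 60.2 and 68.9 in 10p-HFSCs and to between 0.151 and 0.242 in 48p-HFSCs. Col1a2 was called lower, with 67.6 and 59.3 FPKM in 10p-HFSCs against 0 in both 48p-HFSC libraries (-6.01, adjusted p = 0.00056). Dcn and Lum, also of this list, were at 0 in every library. Of 5 leukocyte markers, Cd68 was at an FPKM of at least 1, with Cd3e and Tyrobp at 0 throughout. Cd68 was called higher, with 7.3 and 6.81 FPKM in 10p-HFSCs against 53.2 and 78.7 FPKM in 48p-HFSCs (3.03, adjusted p = 0.002). The leukocyte list summed to between 6.83 and 7.41 in 10p-HFSCs and to between 53.7 and 79.4 in 48p-HFSCs. The 5 melanocyte markers and the 5 endothelial markers summed to 2.86 or less in every library. The part of these markers, and of Sox9, in the differences of the replication genes was not tested.

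By at least 1.5-fold, 11 genes were higher and 2 lower in replicate 2 than in replicate 1 of 48p-HFSCs, while 3 genes differed that much between the 10p-HFSC libraries. The median difference between the 48p-HFSC libraries was 0.38 for the replication genes and 0.01 for all genes. Over the 47 genes, the Spearman correlation of transcript length was -0.26 with that difference and -0.25 with the difference between groups, a description across genes that share libraries. Exons of 15 of the 47 genes overlap those of a gene on the opposite strand, and the longest overlaps of a pair of exons were those of Gins2 (2758 bases), Chaf1a (2542), Fen1 (1909) and Rfc2 (952). The genes called lower among the 15 are Orc2, Orc6, Mcm7 and Cdc45. The ratio of Chaf1b to Chaf1a carries this limit as well, and the sources used here do not state whether the counting used strand.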

How the data were processed

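RNA of 4 libraries was sequenced from a stranded mRNA kit. The authors mapped the reads to mm10 with TopHat2 2.1.1 and deposited FPKM values per gene symbol and library, made with Cuffdiff 2.2.1 per the submitters' processing notes (the methods name Cufflinks). The gene annotation, the strand setting and the treatment of reads with several possible positions are not given in the sources used here. FPKM values hold no read counts and the absolute depth is unknown, so no counting interval is given. Relative depth (with replicate 1 of 10p-HFSCs as 100%, its fellow library stood at 71.7%, and 48p-HFSCs at 82.9% in replicate 1 and 46.7% in replicate 2) came from the most common ratio of low values.

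The 11018 genes that reached 1 FPKM in 2 or more libraries were compared on log2(FPKM + 1) with limma 3.58.1 in R 4.3.3 (trended variance prior, Benjamini-Hochberg adjustment over all of them), without scaling between libraries, after the fit was tested on simulated data. Groups follow the labels. Positions and transcript lengths came from GENCODE M21 (GRCm38, of which mm10 is another name), and promoter sequences from RefSeq, GRCm38.p6. Other computations used Python 3.11.15 and pandas 2.3.3.

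The replication genes, the other lists and the rules were chosen with earlier results of these data known. Values per library were given for every replication gene called and for the highest and lowest of each role group. They were also given for at most 4 called genes of each other list. Rrm1, Rrm2, Mcm10, Pole, Cdt1, Pola2, Mki67, Birc5, Cdk1, Rrm2b, Tipin, Nasp, Dbf4, Sox9, Itga6, Itgb4, Col1a2 and Cd68 were described after their values were seen. Alternatives covered pseudocount, filter, scaling, variance prior, thresholds, the replicate number as a block, transcript length and GC content, and leaving out each library.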

Additional observations from a re-analysis of the deposited data

How the results depend on the processing

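All 14 genes called lower kept a lower mean under every alternative, and Orc6, Mcm2, Mcm4, Mcm5, Mcm7 and Chaf1b stayed called under all 12 that used every library. Alternatives that only loosen a threshold could not lose a call. The calls of Orc2, Cdc6, Mcm3, Cdc45, Gins3, Pola1 and Tyms were lost both with no filter on low values and under TPM, those of Orc2, Mcm3 and Tyms after the length and GC correction, with or without the block, those of Mcm3 and Tyms with a constant variance prior, and that of Pcna with no filter and with a filter on the mean. Rescaling to TPM moved the median of all genes from -0.03 to -0.55 and that of the replication genes to -0.97, and their distance to -0.43 from -0.37. After it, 8 replication genes were called lower, of which 7 were among the 14 and Rrm2 (-1.55) was gained. Of all genes, 820 were then called lower and 620 higher, and 0 of the other replication genes were called higher. With no filter on low values, which tests more genes, 6 replication genes and 637 of all genes were called lower, and 0 of the other replication genes higher. Both groups carry the replicate numbers 1 and 2, which are not stated to mark a batch, and deviations of same-numbered libraries correlated at 0.408 across genes. With the replicate block, 1497 of all genes were called lower and 1613 higher, among them 15 replication genes lower and 1 higher (Pold1), and 12 of the other replication genes lower and 2 higher. With this block and the length and GC correction together, 1291 of all genes were called lower and 1491 higher, among them 12 replication genes lower and 2 higher, and 11 of the other replication genes lower, as were 11 at an adjusted p under 0.1. Leaving out 1 library at a time, which leaves a lone sample assumed to vary like the other group, gave 35 to 1936 genes called higher and 140 to 1875 lower, 0 to 13 replication genes lower and 0 to 4 higher, and 0 to 12 of the other replication genes lower and 0 to 4 higher. The cause was not tested.

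Genes that were not called changed sign as follows. Under TPM, Orc5 was at -0.45, Pola2 at -0.55, Prim2 at -0.35, Pold3 at -0.27, Pole2 at -0.32, Lig1 at -0.21 and Rpa3 at -0.09, and Pola2 was at -0.03 under quantile normalization. After the length and GC correction, with or without the block, Orc5 was at -0.01, Mcm6 at 0.16, Pola2 at -0.10, Pole2 at -0.01, Rpa1 at 0.14 and Rpa3 at -0.15. Leaving out single libraries, the difference ranged from -0.11 to 0.33 for Orc5, from -0.34 to 0.27 for Cdt1, from -0.25 to 0.06 for Mcm6, from -0.58 to 0.16 for Gins1, from -0.15 to 0.17 for Pola2, from -0.57 to 0.17 for Prim1, from -0.03 to 0.39 for Prim2, from -0.05 to 0.61 for Pold3, from -0.24 to 0.0 for Rfc5, from -0.21 to 0.92 for Lig1, from -0.37 to 0.16 for Rpa2 and from -0.76 to 0.15 for Rrm1. In a window of 100 bases before the start, the share of promoter windows of replication genes was 23.4% for the E2F core (59.6% in the full window), 42.6% for the CCAAT box (55.3%), 4.26% for the CHR (14.9%) and 51.1% for the GC box (72.3%).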
